A study of Mus musculus with 10 samples.

Results

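The potassium channel genes of mouse were followed through ribosome-bound RNA from 3 sets of Cre-labelled cells of the primary somatosensory cortex. Members were all protein-coding genes whose symbol starts with Kcn, except Kcnj8, Kcnj10 and Kcnj16, which left 91 of the 55536 genes in the count table. They fall into 15 subfamilies by symbol and the single gene Kcnrg. In translating ribosome affinity purification (TRAP), a Cre-dependent virus supplies the ribosomal protein L10a fused to GFP. Antibodies against GFP then pull down ribosomes, with the RNA they hold, from the cells that carried Cre. All groups received the same virus, AAV5-EF1α-Flex-EGFPL10a, at 400 nl per side and 0.1 µl per minute, and tissue was taken 4 weeks later from the region that the labels call S1DZ. The groups were Il-17ra-Cre (3 libraries), Il-17rb-Cre (3 libraries) and Il-17rc-Cre (4 libraries), named for the interleukin-17 receptor gene that drove Cre. The driver decides which cells are labelled, so each group can hold several cell types, and no group without Cre and no whole-tissue RNA was analysed here. Age and sex are not given in the labels, and whether each replicate came from its own animal is not stated there either. The p-values therefore measure only the spread between these libraries, which may be technical.

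Potassium channels let potassium leave the cell down its gradient, which sets the resting membrane potential and ends or delays action potentials. Voltage-gated pore subunits (Kcna, Kcnb, Kcnc, Kcnd, Kcnh, Kcnq) open on depolarization and work with auxiliary subunits (Kcnab, Kcnip, Kcne) and with electrically silent subunits (Kcnf, Kcng, Kcns, Kcnv) that form no channel alone. Inward rectifiers (Kcnj) and leak channels of the two-pore-domain class (Kcnk) act near rest, and calcium- or sodium-activated channels (Kcnma1 with Kcnmb, Kcnn, Kcnt) follow activity. In cortex most of these are best known from neurons, while Kcnj10 and Kcnj16 are glial and Kcnj8 is found in mural cells of vessels.

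Upstream sequence was read for the 67 of 91 members that matched a RefSeq gene start (GRCm38.p6), as 88 windows of 250 bases ending at the base before a start. Windows are shown for a pair of members that rose in Il-17rb-Cre libraries against both other groups (Kcns1, Kcnk4), for Kcnn3, which fell against both, and for Kcnk13, which fell against Il-17ra-Cre but did not pass against Il-17rc-Cre, 5′ to 3′ on the strand of the gene. Capitals mark a GC box, GGGCGG or its reverse complement CCGCCC. They come from chr2:164171114-164171363 on the minus strand (Kcns1), chr19:6934516-6934765 on the minus strand (Kcnk4), chr3:89519914-89520163 on the plus strand (Kcnn3) and chr12:99964249-99964498 on the plus strand (Kcnk13).
Kcns1: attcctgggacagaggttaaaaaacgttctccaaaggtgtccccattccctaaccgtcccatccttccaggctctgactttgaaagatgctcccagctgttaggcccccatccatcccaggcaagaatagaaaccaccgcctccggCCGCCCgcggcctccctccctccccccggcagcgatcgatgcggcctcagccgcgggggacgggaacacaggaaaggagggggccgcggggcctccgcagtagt
Kcnk4: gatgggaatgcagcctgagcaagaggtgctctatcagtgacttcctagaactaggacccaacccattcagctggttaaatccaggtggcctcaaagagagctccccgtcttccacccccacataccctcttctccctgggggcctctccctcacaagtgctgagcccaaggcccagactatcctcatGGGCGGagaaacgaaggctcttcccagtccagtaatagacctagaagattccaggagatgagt
Kcnn3: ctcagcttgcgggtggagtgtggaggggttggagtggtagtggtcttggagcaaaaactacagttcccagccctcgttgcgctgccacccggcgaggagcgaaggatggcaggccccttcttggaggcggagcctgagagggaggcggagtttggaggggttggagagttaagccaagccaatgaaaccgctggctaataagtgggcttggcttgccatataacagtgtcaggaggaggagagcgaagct
Kcnk13: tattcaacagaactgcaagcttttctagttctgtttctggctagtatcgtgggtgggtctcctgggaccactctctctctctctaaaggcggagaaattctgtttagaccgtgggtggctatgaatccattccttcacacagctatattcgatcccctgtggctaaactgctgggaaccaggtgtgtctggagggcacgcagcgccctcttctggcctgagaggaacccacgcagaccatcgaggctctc
The windows of Kcns1 and Kcnk4 hold 1 GC box each, and those of Kcnn3 and Kcnk13 hold none. They are examples and do not stand for all members that rose or fell. Kcna2, which also rose against both other groups, has no GC box in its window, and Kcnab2, another such member, has windows with and without one. Among all Kcn windows 45.5% hold a GC box, against 32.7% of all 32851 windows in the RefSeq table. A TATA box (TATAAA, both strands) is in 2.27% of Kcn windows and 12.4% of all, an E-box (CACGTG) in 6.82% and 6.02%, and a full cAMP response element (TGACGTCA) in none of the 88 and 1.55% of all. The median GC content is 58.8% in Kcn windows and 52.4% in all windows. These are matches of letters in fixed windows and were not related to the read counts.

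Total counts ran from 39692925 to 165844244 per library, and 75 of the 91 members passed the filter on low counts. The other 16 had at most 82 counts over the 10 libraries together, and 4 of them (Kcne1, Kcnv2, Kcnj1, Kcnk18) had none. Passing can rest on 1 group alone, so counts over the 75 are descriptions read beside the share of all tested genes. Transcripts of the drivers did not mark the groups by label. Il17rc was at 20.3 to 39.9 CPM (counts scaled to library size, with TMM factors) in Il-17rc-Cre, 21.3 to 41.2 in Il-17ra-Cre and 1.03 to 3.19 in Il-17rb-Cre libraries. Il17rb was at 0.614 to 0.872 CPM in Il-17rb-Cre and at 1.27 to 3.75 in Il-17ra-Cre libraries, so groups are named only by their labels throughout. Cell type markers differed strongly between groups. Summed over 12 pan-neuronal genes, the level was 17335 to 17672 CPM in Il-17rb-Cre, 5449 to 6906 in Il-17ra-Cre and 4272 to 5128 in Il-17rc-Cre libraries. These genes did not all move alike. Against Il-17ra-Cre 9 of the 12 rose in Il-17rb-Cre, Tubb3 fell (-1.71, edgeR adjusted p = 0.031), and Map2 (0.03) and Elavl3 (-0.08) did not pass. Against Il-17rc-Cre 10 rose, and Map2 (-0.20) and Tubb3 (0.92) did not pass. Tubb3 and Elavl3 were also higher in Il-17ra-Cre than in Il-17rc-Cre (2.63 and 1.56, edgeR adjusted p = 0.0398 and 0.0104). The sum of 8 astrocyte genes was 492 to 537 CPM in Il-17rb-Cre, 6536 to 13133 in Il-17ra-Cre and 10757 to 16684 in Il-17rc-Cre. The 6 oligodendrocyte genes summed to 42936, 29462 and 5082 CPM in Il-17ra-Cre replicates 1 to 3, against 988 to 3814 in the other groups. In those replicates Rpl10a, the gene of the tagged protein, was at 58.6, 70.9 and 679 CPM. It was at 602 to 669 CPM in Il-17rb-Cre and 191 to 267 in Il-17rc-Cre. For Rpl10a, replicates 1 and 2 of Il-17ra-Cre were thus the lowest of all 10 libraries, and the other groups did not overlap each other. Whether reads of the L10a sequence in the virus were counted under Rpl10a was not tested. In such bulk samples fewer cells of a type and less RNA per cell cannot be told apart.

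Most tested potassium channel genes were higher in Il-17rb-Cre libraries, and a short list was lower. Against Il-17ra-Cre, 42 of the 75 tested members rose and 7 fell (edgeR quasi-likelihood F test with Benjamini-Hochberg adjustment over all tested genes). Of all 20301 genes tested, 16.4% rose and 24.4% fell in that comparison, so the share of members that rose (56%) was above the background and the share that fell (9.33%) below it. The median log2 fold change of the members was 1.19, that of all tested genes was -0.09. In 49 members every Il-17rb-Cre library was above every Il-17ra-Cre library (24.6% of all genes), and in 9 every one was below (29.2% of all genes). Without Il-17ra-Cre replicates 1 and 2, the libraries with low Rpl10a and high oligodendrocyte genes, 1 library of that group is left and the counts were 19 and 4, with the lone library assumed to vary like the others (6.4% of all genes rose and 11.9% fell in that fit). Calls against Il-17ra-Cre lost in that fit among the members named here were those of Kcna5, Kcnc1, Kcnc4, Kcnh4, Kcnip3, Kcnj4, Kcnj6, Kcnj11, Kcnk5, Kcnk13, Kcnma1, Kcnmb4, Kcnn1 and Kcnt2.

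Against Il-17rc-Cre, 38 tested members rose and 7 fell, where 17.7% of all genes rose and 21.9% fell. The members' median log2 fold change was 1.01, that of all tested genes 0.02. Every Il-17rb-Cre library lay above every Il-17rc-Cre library in 43 members (27.5% of all genes) and below in 9 (25.5% of all genes). Both comparisons share the Il-17rb-Cre libraries, so they are not independent of each other. Relative to the fold change of the pan-neuronal list (median 1.61 against Il-17ra-Cre and 1.62 against Il-17rc-Cre), the members' medians were smaller. Summed over all members, Kcn transcripts made up 3295 to 4134 CPM in Il-17rb-Cre, 1174 to 1825 in Il-17ra-Cre and 1551 to 2032 in Il-17rc-Cre libraries. Expressed as a percentage of the pan-neuronal sum, that was 18.7 to 23.9% in Il-17rb-Cre, 21.5 to 26.4% in Il-17ra-Cre and 34.7 to 41.4% in Il-17rc-Cre libraries. The Il-17rc-Cre libraries were thus highest on that scale and did not overlap the others.

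**Figure D1:**
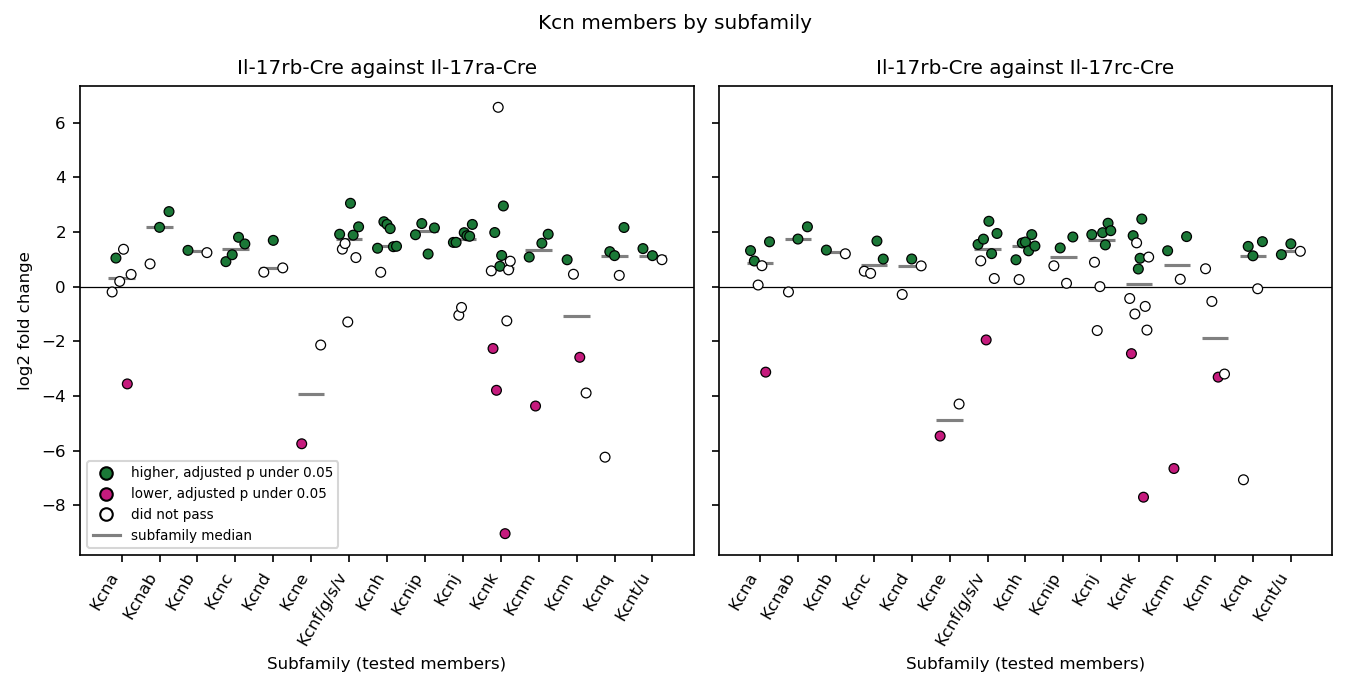
Log2 fold change of each tested Kcn member (y axis) by subfamily (x axis), Il-17rb-Cre against Il-17ra-Cre at left and against Il-17rc-Cre at right. Green points rose and magenta points fell at an adjusted p under 0.05, white points did not pass, and grey lines are subfamily medians; 42 and 38 points are green and 7 and 7 magenta. The points below -6 and above 6 in the Kcnk and Kcnq columns include members with no count in 1 group, whose fitted value depends on the fit and is no bound.

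Among Kcna genes, which encode low-threshold axonal channels, the 3 members with the most reads followed different patterns. Kcna1, a pore subunit placed beside nodes of Ranvier and at axon terminals, was at 115, 108 and 55.5 CPM in Il-17ra-Cre, 71.9, 91.6 and 79.5 in Il-17rb-Cre and 27.2, 44.4, 29.9 and 28.7 in Il-17rc-Cre. Il-17ra-Cre and Il-17rb-Cre overlapped, and both were above all Il-17rc-Cre libraries. Its log2 fold change in Il-17rb-Cre was -0.20 ± 0.28 (SE) against Il-17ra-Cre (edgeR adjusted p = 0.613) and 1.31 ± 0.26 against Il-17rc-Cre (edgeR adjusted p = 0.00307). Kcna6, another subunit of the class, was at 76.2, 64 and 72.3 CPM in Il-17ra-Cre, 116, 89.2 and 84.2 in Il-17rb-Cre and 28.6, 35.3, 31.6 and 28.6 in Il-17rc-Cre. It was lowest in Il-17rc-Cre, with no overlap, and its log2 fold change was 0.44 ± 0.17 (SE) against Il-17ra-Cre (edgeR adjusted p = 0.0539) and 1.64 ± 0.15 against Il-17rc-Cre (edgeR adjusted p = 3.43e-05). The first passed as higher with DESeq2 (adjusted p = 0.041) and limma voom (0.0201). It also passed with upper quartile scaling (edgeR adjusted p = 0.0238) and a filter of 1 CPM in 3 libraries (0.0429). Exons of Kcna6 overlap those of Gm26673 over 39.6% of their length, and Gm26673 itself was at 0.377 to 4.04 CPM. Kcna2, which commonly joins Kcna1 in the same channels, was at 47.3, 77.5 and 55.8 CPM in Il-17ra-Cre, 108, 131 and 133 in Il-17rb-Cre and 62.9, 80.1, 61.1 and 55.3 in Il-17rc-Cre. All Il-17rb-Cre libraries were highest, and the log2 fold change was 1.04 ± 0.21 (SE) against Il-17ra-Cre (edgeR adjusted p = 0.00329) and 0.94 ± 0.19 against Il-17rc-Cre (edgeR adjusted p = 0.00383). Kcna5, best known from heart and vascular muscle, went the other way, at 2.94, 3.79 and 3.83 CPM in Il-17ra-Cre, 0.338, 0 and 0.557 in Il-17rb-Cre and 3.56, 1.18, 3.34 and 2.39 in Il-17rc-Cre. It was below all other libraries in Il-17rb-Cre, by -3.56 ± 1.04 (SE) against Il-17ra-Cre (edgeR adjusted p = 0.0198) and -3.13 ± 0.99 against Il-17rc-Cre (edgeR adjusted p = 0.0295). Without Il-17rb-Cre replicate 1 neither call of Kcna5 held (edgeR adjusted p = 0.0589 and 0.0792), and without Il-17rc-Cre replicates 1 or 3 the second was lost as well (0.0593 and 0.0552).

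The cytoplasmic beta subunits encoded by Kcnab genes bind Kcna channels and shape their inactivation and surface transport. Kcnab2 was at 69.7, 91.2 and 173 CPM in Il-17ra-Cre, 450.5, 538 and 510.4 in Il-17rb-Cre and 161, 163, 148 and 128 in Il-17rc-Cre. Kcnab3 was at 19.4, 34.3 and 65 CPM in Il-17ra-Cre, 232, 299 and 265 in Il-17rb-Cre and 58.4, 75.4, 52.3 and 47.2 in Il-17rc-Cre. For both genes each Il-17rb-Cre library lay far above every other library. The log2 fold change of Kcnab2 was 2.17 ± 0.30 (SE) against Il-17ra-Cre (edgeR adjusted p = 3.91e-04) and 1.74 ± 0.27 against Il-17rc-Cre (edgeR adjusted p = 6.86e-04). That of Kcnab3 was 2.74 ± 0.39 (SE) against Il-17ra-Cre (edgeR adjusted p = 4.49e-04) and 2.19 ± 0.34 against Il-17rc-Cre (edgeR adjusted p = 7.64e-04). Kcnab3 and Kcnab2 were the most abundant members per length in Il-17rb-Cre libraries, at 92.6 and 89.6 RPKM, against 13.8 and 19.9 RPKM in Il-17ra-Cre. The third member did not pass in either comparison.

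Kcnb2, which encodes a delayed rectifier pore subunit, was at 2.86, 7.27 and 4.3 CPM in Il-17ra-Cre, 10.7, 11.5 and 12 in Il-17rb-Cre and 4.05, 9.71, 5.18 and 0.849 in Il-17rc-Cre and passed in neither comparison (edgeR adjusted p = 0.164 and 0.145), although every Il-17rb-Cre library was highest. It did pass against Il-17ra-Cre in a fit of only the 2 groups (edgeR adjusted p = 0.0359) and without Il-17rc-Cre replicate 4 (0.0404). Against Il-17rc-Cre it passed with limma voom (adjusted p = 0.00896) and without Il-17rc-Cre replicate 2 (edgeR adjusted p = 0.0447). All 4 Kcnc genes, whose channels repolarize fast-spiking cells, rose against Il-17ra-Cre and 2 rose against Il-17rc-Cre. In those comparisons 16.4% and 17.7% of all genes rose, and 56% and 50.7% of all tested members. Kcnc4 was at 10.8, 14.4 and 33.9 CPM in Il-17ra-Cre, 42.7, 72 and 59.9 in Il-17rb-Cre and 34.5, 28.3, 28.8 and 24.3 in Il-17rc-Cre, with all Il-17rb-Cre libraries above the rest. Its log2 fold change was 1.56 ± 0.39 (SE) against Il-17ra-Cre (edgeR adjusted p = 0.00943) and 1.01 ± 0.35 against Il-17rc-Cre (edgeR adjusted p = 0.0439). The second call was lost without any 1 library of Il-17rb-Cre or Il-17rc-Cre and without Il-17ra-Cre replicate 2, at edgeR adjusted p from 0.0531 to 0.182. Kcnc1 was at 17.1, 29.1 and 26.7 CPM in Il-17ra-Cre, 44.7, 51.3 and 41.2 in Il-17rb-Cre and 30.9, 38.9, 30.1 and 23.9 in Il-17rc-Cre. It rose against Il-17ra-Cre by 0.91 ± 0.24 (edgeR adjusted p = 0.0119), while the value against Il-17rc-Cre was 0.56 ± 0.22 (edgeR adjusted p = 0.065, and 0.0392 without Il-17rc-Cre replicate 2).

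Kcnd genes encode the A-type channels of dendrites, and Kcnip genes the calcium-binding proteins that attach to them. Of 3 Kcnd genes, only Kcnd2 passed in the main edgeR fit. With limma voom Kcnd3 also passed, at 0.86 against Il-17ra-Cre (adjusted p = 0.041) and 1.01 against Il-17rc-Cre (0.00754). Kcnd2 was at 10.5, 11.5 and 17.1 CPM in Il-17ra-Cre, 36.9, 47.9 and 41.7 in Il-17rb-Cre and 21.3, 20, 25.3 and 17.1 in Il-17rc-Cre. All Il-17rb-Cre libraries were above the others, with log2 fold changes of 1.69 ± 0.23 (SE) against Il-17ra-Cre (edgeR adjusted p = 3.80e-04) and 1.01 ± 0.21 against Il-17rc-Cre (edgeR adjusted p = 0.00374). All 4 Kcnip genes rose against Il-17ra-Cre and 2 rose against Il-17rc-Cre, where 16.4% and 17.7% of all genes rose. Kcnip2 was at 24.3, 65.4 and 39.2 CPM in Il-17ra-Cre, 198, 222 and 216 in Il-17rb-Cre and 93.3, 51.8, 128 and 45.9 in Il-17rc-Cre. Its Il-17rb-Cre libraries were all highest, and the fold change was 2.31 ± 0.44 (SE) against Il-17ra-Cre (edgeR adjusted p = 0.0024) and 1.41 ± 0.39 against Il-17rc-Cre (edgeR adjusted p = 0.0165). The second call did not hold without Il-17rb-Cre replicate 2 (edgeR adjusted p = 0.0584) or 3 (0.0557). Kcnip3, also described as the transcriptional repressor DREAM, was at 69.9, 91 and 146 CPM in Il-17ra-Cre, 191, 263 and 247 in Il-17rb-Cre and 264, 147, 271 and 179 in Il-17rc-Cre. Its Il-17rb-Cre and Il-17rc-Cre libraries overlapped. Its log2 values were 1.19 ± 0.31 (SE) against Il-17ra-Cre (edgeR adjusted p = 0.0124) and 0.12 ± 0.29 against Il-17rc-Cre (edgeR adjusted p = 0.773), so the second did not pass.

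The silent subunits pair with Kcnb channels and change their gating. Of 8 tested, 4 rose against Il-17ra-Cre and 5 against Il-17rc-Cre, where 16.4% and 17.7% of all genes rose. Kcns1, whose product modifies the delayed rectifier in sensory and cortical neurons, was at 6.49, 7.35 and 18.1 CPM in Il-17ra-Cre, 73.5, 99.4 and 93.1 in Il-17rb-Cre and 17.1, 14.7, 20 and 15.9 in Il-17rc-Cre. The lowest Il-17rb-Cre library was several times the highest of any other group. On the log2 scale the difference was 3.05 ± 0.37 (SE) against Il-17ra-Cre (edgeR adjusted p = 1.98e-04) and 2.39 ± 0.33 against Il-17rc-Cre (edgeR adjusted p = 3.43e-04). Kcnv1, another modifier of Kcnb channels, was at 19.5, 22.6 and 30.8 CPM in Il-17ra-Cre, 95, 116 and 120.1 in Il-17rb-Cre and 27.6, 28.1, 31.9 and 27.4 in Il-17rc-Cre. Again no Il-17rb-Cre library overlapped the others, at 2.19 ± 0.19 (SE) against Il-17ra-Cre (edgeR adjusted p = 3.30e-05) and 1.94 ± 0.18 against Il-17rc-Cre (edgeR adjusted p = 2.66e-05). Kcnf1, abundant in neocortex, was at 16.3, 24.8 and 27.5 CPM in Il-17ra-Cre, 64.3, 106 and 88.4 in Il-17rb-Cre and 29.8, 31.9, 29.9 and 27.1 in Il-17rc-Cre. It was highest in Il-17rb-Cre without overlap, by 1.91 ± 0.24 (SE) against Il-17ra-Cre (edgeR adjusted p = 2.09e-04) and 1.54 ± 0.21 against Il-17rc-Cre (edgeR adjusted p = 3.65e-04). Kcng4 had the opposite order, at 10.4, 14.2 and 7.35 CPM in Il-17ra-Cre, 2.74, 4.92 and 5.32 in Il-17rb-Cre and 24.2, 8.05, 25.3 and 9.47 in Il-17rc-Cre. All Il-17rb-Cre libraries were lowest, with log2 values of -1.30 ± 0.49 (SE) against Il-17ra-Cre (edgeR adjusted p = 0.0584) and -1.95 ± 0.48 against Il-17rc-Cre (edgeR adjusted p = 0.00929), of which the second passed. Without Il-17rc-Cre replicates 1 and 3 together that value was -1.02 and no longer passed (edgeR adjusted p = 0.0825). The first passed without Il-17ra-Cre replicate 3 (edgeR adjusted p = 0.0417) or Il-17rc-Cre replicate 2 (0.0382), and with DESeq2 (adjusted p = 0.0246) and limma voom (0.0305).

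The Kcnh genes encode channels of the ether-à-go-go group, and 6 of 7 tested rose in each comparison. Against Il-17ra-Cre 16.4% of all genes and 56% of all tested members rose, and against Il-17rc-Cre 17.7% and 50.7%. Kcnh3, an ELK-type channel of forebrain pyramidal cells, was at 22.4, 47.1 and 40.8 CPM in Il-17ra-Cre, 143, 226 and 202 in Il-17rb-Cre and 73.4, 68.4, 73 and 37.4 in Il-17rc-Cre. Its Il-17rb-Cre libraries were all highest, by 2.37 ± 0.34 (SE) against Il-17ra-Cre (edgeR adjusted p = 4.93e-04) and 1.60 ± 0.30 against Il-17rc-Cre (edgeR adjusted p = 0.0023). Kcnh4, of the same type, was at 1.75, 2.6 and 3.4 CPM in Il-17ra-Cre, 12.7, 11.5 and 13.5 in Il-17rb-Cre and 6.64, 1.74, 4.66 and 3.21 in Il-17rc-Cre. All Il-17rb-Cre libraries were above the others, and the fold change was 2.27 ± 0.46 (SE) against Il-17ra-Cre (edgeR adjusted p = 0.00325) and 1.63 ± 0.41 against Il-17rc-Cre (edgeR adjusted p = 0.0103). Kcnh7, an erg-type channel, was at 13.4, 22.5 and 23.7 CPM in Il-17ra-Cre, 51.3, 56.6 and 58 in Il-17rb-Cre and 23, 24.1, 18 and 14.1 in Il-17rc-Cre. It was highest in Il-17rb-Cre without overlap, by 1.47 ± 0.26 (SE) against Il-17ra-Cre (edgeR adjusted p = 0.00161) and 1.48 ± 0.24 against Il-17rc-Cre (edgeR adjusted p = 8.85e-04). Of the Kcnq genes, which give the M-current that limits repetitive firing, 3 of 5 rose in each comparison. Kcnq3, a pore subunit of that current in neurons, was at 12.5, 17.3 and 21.1 CPM in Il-17ra-Cre, 34.2, 39.7 and 37.8 in Il-17rb-Cre and 15.2, 18.3, 18.8 and 16 in Il-17rc-Cre. It was highest in all Il-17rb-Cre libraries. Kcnq3 changed by 1.13 ± 0.21 (SE) against Il-17ra-Cre (edgeR adjusted p = 0.00183) and 1.13 ± 0.19 against Il-17rc-Cre (edgeR adjusted p = 0.00114).

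Kcne genes encode small membrane proteins that attach to voltage-gated channels, and only 2 of 5 were tested. Kcne1l, the X-linked member of that group, was at 143, 106 and 163 CPM in Il-17ra-Cre, 2.91, 1.92 and 2.83 in Il-17rb-Cre and 85.1, 118, 98.7 and 149.6 in Il-17rc-Cre. The highest Il-17rb-Cre value was a small fraction of the lowest value elsewhere. Kcne1l changed by -5.75 ± 0.31 (SE) against Il-17ra-Cre (edgeR adjusted p = 3.42e-06) and -5.47 ± 0.30 against Il-17rc-Cre (edgeR adjusted p = 1.86e-06), with the smallest adjusted p of any member in either comparison. Kcne4 was at 0.943, 0 and 0.579 CPM in Il-17ra-Cre, 0, 0.334 and 0 in Il-17rb-Cre and 2.57, 3.43, 2.52 and 0.595 in Il-17rc-Cre and did not pass (edgeR adjusted p = 0.307 and 0.062). Without Il-17rb-Cre replicate 2 both passed as lower in Il-17rb-Cre (edgeR adjusted p = 0.0356 and 0.0154), and without Il-17ra-Cre replicate 2 the second did (0.0382). The second also passed as lower with DESeq2 (adjusted p = 0.00875) and limma voom (0.00384). It passed as well with a filter of 1 CPM in 3 libraries (edgeR adjusted p = 0.0443) and in a fit of only the 2 groups (0.0314). Kcne1l fell together with all 8 astrocyte markers tested, whose median log2 fold change was -4.03 against Il-17ra-Cre and -5.07 against Il-17rc-Cre. All 5 mural genes also fell, with medians of -5.19 and -7.29. Against Il-17ra-Cre so did all 7 microglial (-4.87) and all 6 oligodendrocyte genes (-4.59), of which 5 and 1 fell against Il-17rc-Cre. Of 5 endothelial genes, 2 fell against Il-17ra-Cre and 4 against Il-17rc-Cre, and of 4 oligodendrocyte precursor genes 3 fell in each comparison. Within Il-17ra-Cre the astrocyte sum was 13133, 12358 and 6536 CPM in replicates 1 to 3, lowest where Kcne1l was highest. In Il-17rc-Cre that sum was 16058, 10757, 16684 and 12898 CPM in replicates 1 to 4, also in another order than Kcne1l. The mural sum was 137, 117 and 187 CPM in Il-17ra-Cre replicates 1 to 3, in the same order as Kcne1l. In Il-17rc-Cre replicates 1 to 4 it was 463, 979, 529 and 444 CPM, in another order. Whether Kcne1l moved with the share of any of these cell types was not tested.

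**Figure D2:**
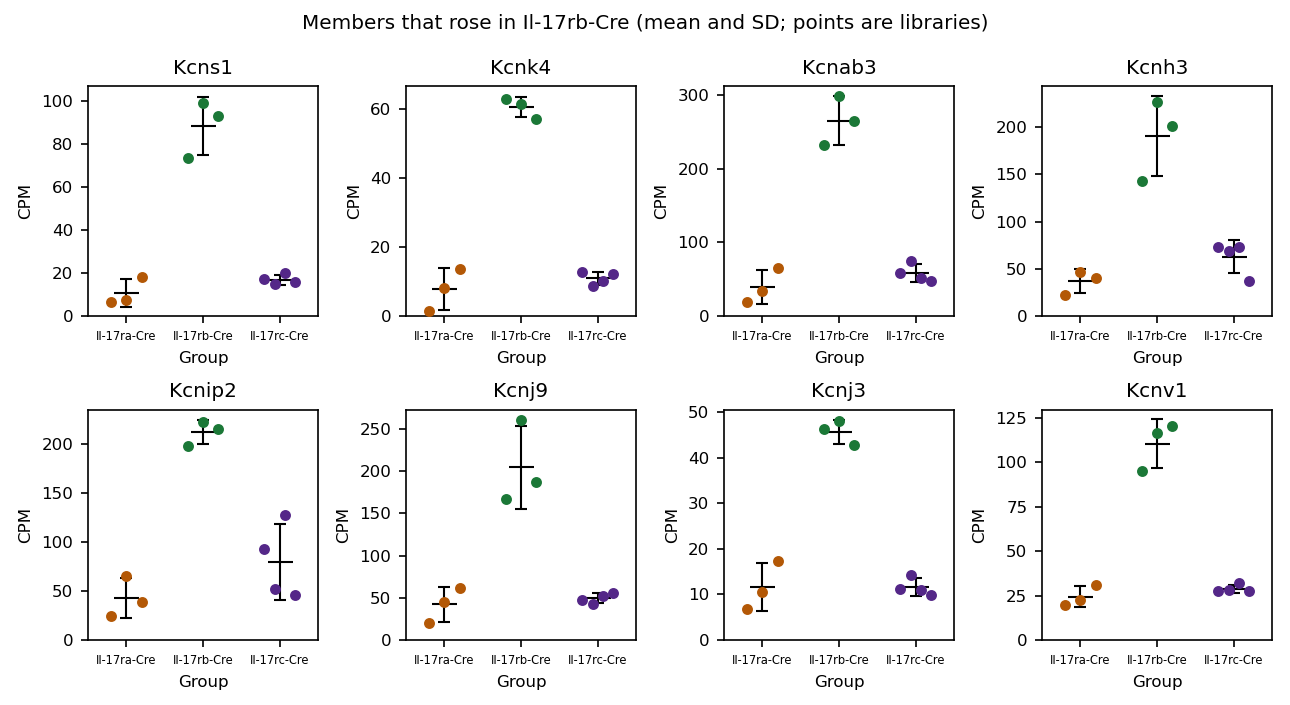
Levels (TMM-scaled CPM, y axis) of 8 members that rose in Il-17rb-Cre against both other groups, by group (x axis). Points are libraries (3, 3 and 4), and black bars are the mean and SD; in every panel the Il-17rb-Cre points lie above all others, as for Kcnab3, which ran from 232 to 299 CPM there and from 19.4 to 75.4 elsewhere.

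Among inward rectifiers, genes for the G-protein-gated channels (GIRK) that open on stimulation of inhibitory receptors rose together. Kcnj9 was at 20.6, 45 and 61.4 CPM in Il-17ra-Cre, 167, 261 and 187 in Il-17rb-Cre and 47.8, 42.3, 52.3 and 56.2 in Il-17rc-Cre. Kcnj3 was at 6.87, 10.6 and 17.3 CPM in Il-17ra-Cre, 46.3, 47.9 and 42.6 in Il-17rb-Cre and 11.3, 14.3, 11 and 9.95 in Il-17rc-Cre. Kcnj6 was at 0.728, 2.36 and 4.19 CPM in Il-17ra-Cre, 8.07, 9.41 and 8.79 in Il-17rb-Cre and 2.51, 1.91, 1.45 and 1.16 in Il-17rc-Cre. In each of these GIRK genes every Il-17rb-Cre library lay above all 7 others. Kcnj9 changed by 2.27 ± 0.35 (SE) against Il-17ra-Cre (edgeR adjusted p = 7.32e-04) and 2.04 ± 0.32 against Il-17rc-Cre (edgeR adjusted p = 6.90e-04). Kcnj3 changed by 1.97 ± 0.30 (SE) against Il-17ra-Cre (edgeR adjusted p = 7.29e-04) and 1.97 ± 0.28 against Il-17rc-Cre (edgeR adjusted p = 3.85e-04). Kcnj6 changed by 1.84 ± 0.55 (SE) against Il-17ra-Cre (edgeR adjusted p = 0.0214) and 2.32 ± 0.50 against Il-17rc-Cre (edgeR adjusted p = 0.00475), and its first call was lost without Il-17ra-Cre replicate 2 (edgeR adjusted p = 0.0626) or Il-17rb-Cre replicate 2 (0.0541). Exons of Gm26794 cover 31.1% of Kcnj3, with Gm26794 at 0.0283 to 0.755 CPM. The fourth GIRK gene, Kcnj5, had 38 counts in all and was not tested. Kcnj4, a strong inward rectifier, was at 11.2, 17.8 and 28.9 CPM in Il-17ra-Cre, 64.4, 81.7 and 64.4 in Il-17rb-Cre and 28.8, 17, 32.6 and 19.2 in Il-17rc-Cre. Its values were highest in Il-17rb-Cre without overlap, by 1.86 ± 0.36 (SE) against Il-17ra-Cre (edgeR adjusted p = 0.00247) and 1.52 ± 0.32 against Il-17rc-Cre (edgeR adjusted p = 0.00424). Kcnj11, the pore of the ATP-sensitive channel that closes when ATP is high, was at 4.53, 4.96 and 13.8 CPM in Il-17ra-Cre, 24.8, 22.6 and 24.5 in Il-17rb-Cre and 7.94, 7.01, 6.28 and 4.39 in Il-17rc-Cre. It too was highest in all Il-17rb-Cre libraries, by 1.62 ± 0.41 (SE) against Il-17ra-Cre (edgeR adjusted p = 0.0108) and 1.90 ± 0.38 against Il-17rc-Cre (edgeR adjusted p = 0.003). In all, 6 of 8 tested Kcnj genes rose against Il-17ra-Cre and 5 against Il-17rc-Cre, and none fell. In those comparisons 16.4% and 17.7% of all genes rose, and 24.4% and 21.9% fell.

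Of 12 tested Kcnk genes, which encode leak channels, 4 rose and 3 fell against Il-17ra-Cre, where 16.4% of all genes rose and 24.4% fell. Against Il-17rc-Cre 4 rose and 2 fell, where 17.7% of all genes rose and 21.9% fell, so the share of Kcnk genes that fell was near that of all genes. Kcnk4, the mechanically gated TRAAK channel of nodes of Ranvier, was at 1.4, 8.25 and 13.7 CPM in Il-17ra-Cre, 63, 61.5 and 57.3 in Il-17rb-Cre and 12.7, 8.67, 10.3 and 12.1 in Il-17rc-Cre. Its Il-17rb-Cre libraries were far above all others. It changed by 2.95 ± 0.60 (SE) against Il-17ra-Cre (edgeR adjusted p = 0.00337) and 2.47 ± 0.53 against Il-17rc-Cre (edgeR adjusted p = 0.00457) on the log2 scale, and 13.1% of its exon length overlaps Catsperz. Kcnk10, a related channel of the TREK type, was at 15.7, 12.6 and 13.9 CPM in Il-17ra-Cre, 3.25, 1.73 and 3.8 in Il-17rb-Cre and 13, 20.6, 15.9 and 14.6 in Il-17rc-Cre. Here every Il-17rb-Cre library was lowest, by -2.27 ± 0.31 (SE) against Il-17ra-Cre (edgeR adjusted p = 3.80e-04) and -2.45 ± 0.30 against Il-17rc-Cre (edgeR adjusted p = 1.78e-04). Kcnk1, a weakly conducting channel found in neurons and astrocytes, was at 63.1, 68.7 and 112 CPM in Il-17ra-Cre, 108, 137 and 118 in Il-17rb-Cre and 183, 106, 222 and 144 in Il-17rc-Cre. Its Il-17rb-Cre values overlapped both other groups, and neither comparison passed (edgeR adjusted p = 0.142 and 0.233), although the first did without Il-17ra-Cre replicate 3 (0.0273). With limma voom both passed, in opposite directions (0.82 and -0.55, adjusted p = 0.00834 and 0.0205). Per length, Kcnk1 (73.2 RPKM) and Kcne1l (73.1 RPKM) led the family in Il-17rc-Cre libraries.

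Kcnk13, the tonically active channel that sets the resting potential of microglia, was at 86, 67.1 and 22.2 CPM in Il-17ra-Cre, 5.74, 3.1 and 3.82 in Il-17rb-Cre and 3.31, 18.2, 3.51 and 8.69 in Il-17rc-Cre. Il-17ra-Cre was highest without overlap, and Il-17rb-Cre and Il-17rc-Cre overlapped. Il-17ra-Cre against Il-17rc-Cre was at 2.79 and did not pass in the main fit (edgeR adjusted p = 0.0536). That comparison passed with DESeq2 (adjusted p = 4.15e-04) and limma voom (3.79e-04). The log2 fold change in Il-17rb-Cre was -3.79 ± 0.74 (SE) against Il-17ra-Cre (edgeR adjusted p = 0.00271) and -1.003 ± 0.64 against Il-17rc-Cre (edgeR adjusted p = 0.243), of which the first passed. Summed over 7 microglial genes, levels were 441 to 764 CPM in Il-17ra-Cre, 8.26 to 13.9 in Il-17rb-Cre and 23.5, 125, 21.9 and 63.7 in Il-17rc-Cre replicates 1 to 4. Within Il-17rc-Cre, replicates 2 and 4 were highest for Kcnk13 and for both the microglial and the oligodendrocyte sums. Within Il-17ra-Cre the microglial sum was 498, 764 and 441 CPM in replicates 1 to 3, in another order than Kcnk13. The oligodendrocyte sum there (42936, 29462 and 5082 CPM) had the same order as Kcnk13. The part of these cell types in the Kcnk13 difference was not tested. Kcnk5, an alkaline-sensitive channel, was at 1.37, 1.3 and 0.117 CPM in Il-17ra-Cre, 0, 0 and 0 in Il-17rb-Cre and 0.144, 0.802, 0.48 and 0.0283 in Il-17rc-Cre. It had no count in any Il-17rb-Cre library, so 3 counts over the group (0.0151 CPM) were taken as the floor. On that basis it was at least 61.5-fold below the Il-17ra-Cre mean and at least 24-fold below the Il-17rc-Cre mean. Some libraries lay much nearer to the floor than those means, with Il-17ra-Cre replicate 3 at 0.117 CPM and Il-17rc-Cre replicate 4 at 0.0283. Both comparisons passed (edgeR adjusted p = 0.00827 and 0.0153), at 2 to 58 counts per library in the other groups.

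**Figure D3:**
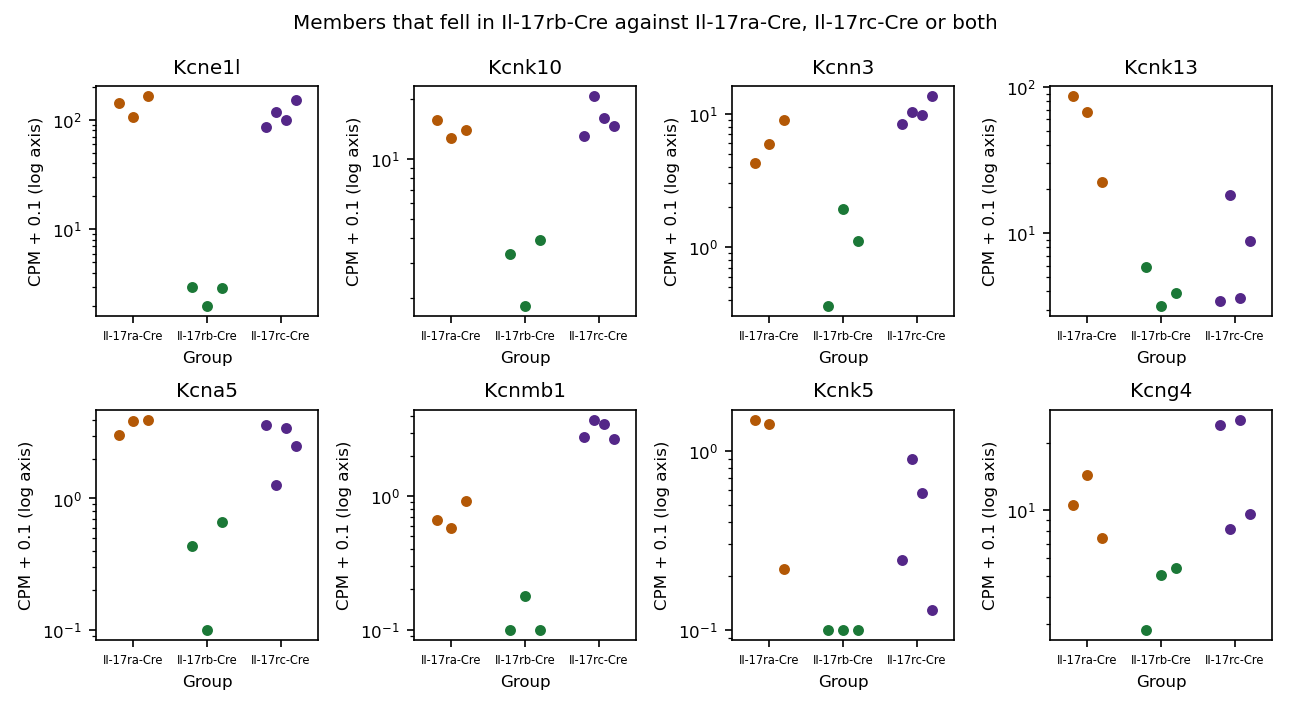
Levels (TMM-scaled CPM plus 0.1, log y axis) of the 8 members that fell in Il-17rb-Cre against at least 1 other group, by group (x axis). Points are libraries; Kcne1l ran from 1.92 to 2.91 CPM in Il-17rb-Cre and from 85.1 to 163 elsewhere, while Kcnk13 stood apart in Il-17ra-Cre and Kcnmb1 was highest in Il-17rc-Cre.

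Calcium- and sodium-activated channels differed by subunit. Kcnma1, the pore of the large-conductance (BK) channel, was at 17.4, 26.2 and 36.8 CPM in Il-17ra-Cre, 53.9, 65.5 and 50.8 in Il-17rb-Cre and 22.1, 30.1, 22.6 and 16.7 in Il-17rc-Cre. Its Il-17rb-Cre libraries were highest without overlap, by 1.08 ± 0.29 (SE) against Il-17ra-Cre (edgeR adjusted p = 0.0132) and 1.31 ± 0.26 against Il-17rc-Cre (edgeR adjusted p = 0.00324). Kcnmb4, its main accessory subunit in neurons, was at 0.216, 1.33 and 2.91 CPM in Il-17ra-Cre, 6.15, 6 and 4.9 in Il-17rb-Cre and 2.02, 1.45, 1.72 and 1.22 in Il-17rc-Cre. It too was highest in all Il-17rb-Cre libraries, by 1.92 ± 0.68 (SE) against Il-17ra-Cre (edgeR adjusted p = 0.0465) and 1.83 ± 0.62 against Il-17rc-Cre (edgeR adjusted p = 0.039). Neither call was stable. Against Il-17ra-Cre the edgeR adjusted p was 0.0576 to 0.119 without any 1 library other than Il-17ra-Cre replicates 1 and 3, and against Il-17rc-Cre 0.0585 to 0.104 without Il-17ra-Cre replicate 2 or any 1 library of the groups compared. In addition, 31.5% of the exon length of Kcnmb4 overlaps Kcnmb4os2 and Kcnmb4os1 taken as 1 set. Kcnmb4os2 was at 0.593, 2.04 and 5.58 CPM in Il-17ra-Cre, 9.99 to 13.1 in Il-17rb-Cre and 2.95 to 3.7 in Il-17rc-Cre. Like Kcnmb4 it was thus highest in all Il-17rb-Cre libraries, and it was above Kcnmb4 in every library. Kcnmb4os1 had no count in Il-17rb-Cre, and the strand setting of the counting is not given. The part of Kcnmb4os2 reads in the Kcnmb4 values was not tested. Kcnmb1, the accessory subunit of smooth muscle BK channels, was at 0.566, 0.477 and 0.819 CPM in Il-17ra-Cre, 0, 0.0801 and 0 in Il-17rb-Cre and 2.69, 3.6, 3.35 and 2.59 in Il-17rc-Cre. The 3 groups were fully separate, with Il-17rc-Cre highest and Il-17rb-Cre lowest. Il-17ra-Cre against Il-17rc-Cre was at -2.29 and did not pass with edgeR (adjusted p = 0.149). That comparison passed with DESeq2 (adjusted p = 1.05e-06) and limma voom (0.00619). The log2 fold change in Il-17rb-Cre was -4.37 ± 0.96 (SE) against Il-17ra-Cre (edgeR adjusted p = 0.00498) and -6.66 ± 1.01 against Il-17rc-Cre (edgeR adjusted p = 6.40e-04). The sum of 5 mural cell genes had the same order, at 444 to 979 CPM in Il-17rc-Cre, 117 to 187 in Il-17ra-Cre and 4.09 to 8.59 in Il-17rb-Cre. The part of mural cells in the Kcnmb1 difference was not tested.

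Kcnn genes encode small-conductance (SK) channels of the afterhyperpolarization and, with Kcnn4, the intermediate-conductance channel. Kcnn3 was at 4.15, 5.81 and 8.88 CPM in Il-17ra-Cre, 0.263, 1.84 and 1.01 in Il-17rb-Cre and 8.35, 10.2, 9.69 and 13.4 in Il-17rc-Cre. All Il-17rb-Cre libraries were lowest, by -2.59 ± 0.58 (SE) against Il-17ra-Cre (edgeR adjusted p = 0.00564) and -3.31 ± 0.58 against Il-17rc-Cre (edgeR adjusted p = 0.00148). Kcnn1 was at 10.5, 9.15 and 10.9 CPM in Il-17ra-Cre, 15.6, 24 and 20.8 in Il-17rb-Cre and 19, 8.98, 13.3 and 10 in Il-17rc-Cre. It rose against Il-17ra-Cre by 0.98 ± 0.29 (edgeR adjusted p = 0.023) and overlapped Il-17rc-Cre, with 0.65 ± 0.27 (edgeR adjusted p = 0.0811, and 0.0175 without Il-17rc-Cre replicate 1). Its call was lost without Il-17ra-Cre replicates 1 or 2 or Il-17rb-Cre replicates 2 or 3 (edgeR adjusted p = 0.0584 to 0.0935). Kcnn2 was at 10.1, 10.2 and 8.11 CPM in Il-17ra-Cre, 9.83, 16.1 and 12.8 in Il-17rb-Cre and 31, 13.7, 22 and 8.58 in Il-17rc-Cre, with overlap in both comparisons. Neither comparison of Kcnn2 passed (edgeR adjusted p = 0.41 and 0.289). The sodium-activated channel genes Kcnt1 and Kcnt2 rose in both comparisons. Kcnt1 was at 6.82, 25.5 and 17.2 CPM in Il-17ra-Cre, 37, 48.4 and 44.4 in Il-17rb-Cre and 13.9, 20.4, 21.3 and 21.4 in Il-17rc-Cre. Kcnt2 was at 2.72, 3.53 and 2.7 CPM in Il-17ra-Cre, 6.45, 8.69 and 4.46 in Il-17rb-Cre and 1.83, 1.98, 2.53 and 2.49 in Il-17rc-Cre. In both genes the Il-17rb-Cre libraries did not overlap the others. Kcnt1 changed by 1.39 ± 0.39 (SE) against Il-17ra-Cre (edgeR adjusted p = 0.0173) and 1.17 ± 0.36 against Il-17rc-Cre (edgeR adjusted p = 0.0256). Its second call was lost without Il-17rb-Cre replicate 2 (edgeR adjusted p = 0.0917) or 3 (0.0774) or Il-17rc-Cre replicate 1 (0.0647). Kcnt2 changed by 1.13 ± 0.32 (SE) against Il-17ra-Cre (edgeR adjusted p = 0.0185) and 1.56 ± 0.30 against Il-17rc-Cre (edgeR adjusted p = 0.00241). Its first call was lost without Il-17ra-Cre replicate 1 (0.0545) or Il-17rb-Cre replicate 2 (0.0893).

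A second scale set the members against neuronal transcripts, with libraries scaled so that the mean log2 level of the 12 pan-neuronal genes, which did not all move alike, was equal in all of them. On that scale 11 members rose and 17 fell in Il-17rb-Cre against Il-17ra-Cre, where 2.22% of all genes rose and 60.3% fell. The members that rose were chosen by this call. They were the auxiliary subunits Kcnab2, Kcnab3 and Kcnip4, the silent subunits Kcnf1, Kcns1 and Kcnv1, Kcnh3, Kcnh5, the GIRK genes Kcnj3 and Kcnj9, and Kcnk4. Kcns1 had the highest value, 1.81 ± 0.28 (edgeR adjusted p = 3.26e-04), followed by Kcnk4 at 1.79 ± 0.49 (edgeR adjusted p = 0.00885) and Kcnab3 at 1.51 ± 0.25 (edgeR adjusted p = 4.70e-04). Among those that fell on this scale, Kcna1 was at -1.67 ± 0.39 in log2 (edgeR adjusted p = 0.0034) and Kcna6 at -0.95 ± 0.25 (edgeR adjusted p = 0.00635), while neither passed in the main fit on the TMM scale. Kcna6 was called higher, the opposite direction, with DESeq2, limma voom, upper quartile scaling and another filter, as given above.

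Against Il-17rc-Cre 4 members rose and 24 fell on the pan-neuronal scale, where 0.724% of all genes rose and 61.8% fell. Those that rose were Kcns1 (0.94 ± 0.25, edgeR adjusted p = 0.00765), Kcnab3 (0.77 ± 0.23, edgeR adjusted p = 0.0129), Kcnj3 (0.55 ± 0.20, edgeR adjusted p = 0.0304) and Kcnv1 (0.50 ± 0.18, edgeR adjusted p = 0.0286). The number that rose was 7 without Il-17ra-Cre replicate 1 (0.964% of all genes), 1 without Il-17rb-Cre replicate 2 (0.316%), and 2 without either Il-17rb-Cre replicate 3 (0.392%) or Il-17rc-Cre replicate 1 (0.668%). The members' median on this scale was -0.11 against Il-17ra-Cre and -0.43 against Il-17rc-Cre, and that of all tested genes -1.47 and -1.41. With 10 excitatory neuron genes as the reference in place of the pan-neuronal ones, 1 member rose and 35 fell against Il-17ra-Cre, where 0.236% of all genes rose and 75.9% fell. Against Il-17rc-Cre 0 rose and 41 fell with that reference, where 0.123% of all genes rose and 74.9% fell. The sign of the members' median thus differed between the TMM and the pan-neuronal scale.

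**Figure D4:**
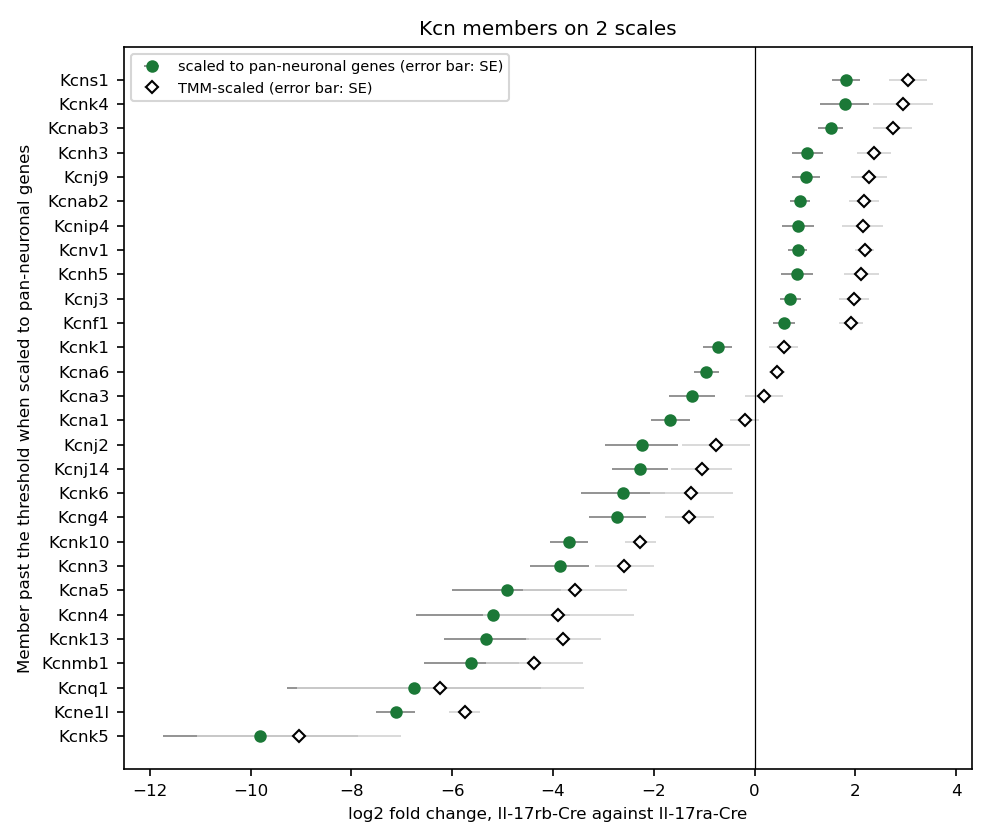
Log2 fold change in Il-17rb-Cre against Il-17ra-Cre (x axis) of the 28 members that passed when libraries were scaled to pan-neuronal genes (y axis), with SE. Green circles are the pan-neuronal scale and open diamonds the TMM scale; each circle lies to the left of its diamond, and 11 circles are above 0, led by Kcns1 at 1.81. Kcnk5 and Kcnq1 have no count in Il-17rb-Cre, so their fitted values are no bounds.

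The make-up of the family differed between groups when each library's summed RPKM over all members was split by subfamily. Kcnab genes held 23.2 ± 0.191% (SD, n = 3) of it in Il-17rb-Cre, 9.51 ± 2.91% (n = 3) in Il-17ra-Cre and 12 ± 1.38% (n = 4) in Il-17rc-Cre. Kcne genes, nearly all Kcne1l, held 0.217 ± 0.0555% in Il-17rb-Cre, 23.7 ± 5.39% in Il-17ra-Cre and 16.4 ± 5.4% in Il-17rc-Cre. The Kcnj share was 12.4 ± 0.912% in Il-17rb-Cre and 6.67 ± 1.92% and 6.62 ± 0.312% in Il-17ra-Cre and Il-17rc-Cre. That of the silent subunits was 10.8 ± 0.543%, 5.41 ± 0.747% and 6.24 ± 0.276% in Il-17rb-Cre, Il-17ra-Cre and Il-17rc-Cre. The libraries of Il-17rb-Cre did not overlap the other groups for these 4 subfamilies. Kcnip shares of Il-17rb-Cre (17.8 to 19.7%) lay within those of Il-17rc-Cre (15.8 to 23.4%), and Kcnk genes held 10.9 to 11.9% in Il-17rb-Cre against 16.4 to 22% in the other groups. Shares sum to the whole, so a rise in 1 subfamily lowers the rest.

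**Figure D5:**
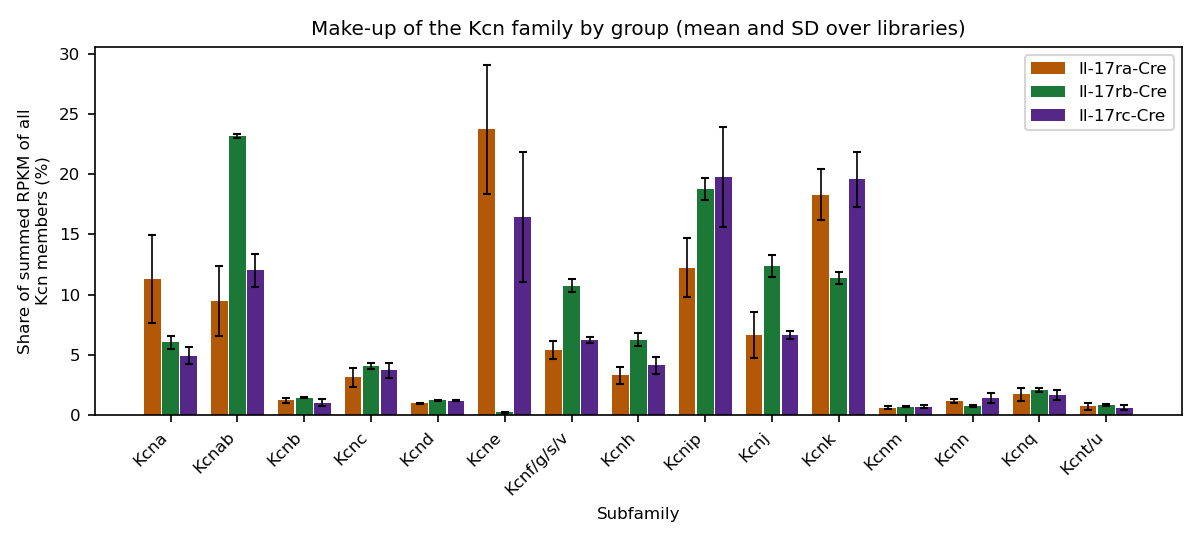
Share of the summed RPKM of all Kcn members held by each subfamily (y axis, %), by subfamily (x axis) and group. Bars are means and black lines SDs over libraries (n = 3, 3 and 4); the Kcnab bar is highest in Il-17rb-Cre (23.2%), where the Kcne bar is nearly at 0 (0.217%).

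Between Il-17ra-Cre and Il-17rc-Cre few members could be told apart. Only Kcna1 and Kcna6 rose in Il-17ra-Cre and 0 members fell, where 1.38% of all genes rose and 0.798% fell, and 14 members had an unadjusted p under 0.05. No Il-17ra-Cre library overlapped an Il-17rc-Cre library in 4 members that were above (7.92% of all genes) and 7 that were below (6.65% of all genes). The log2 fold change was 1.51 ± 0.26 for Kcna1 (edgeR adjusted p = 0.0375) and 1.19 ± 0.15 for Kcna6 (edgeR adjusted p = 0.0174). Kcna1 lost its call without any 1 library except Il-17ra-Cre replicate 3 and Il-17rc-Cre replicate 2 (edgeR adjusted p = 0.0599 to 0.14). Kcna6 lost its call without Il-17ra-Cre replicates 1 or 2, Il-17rb-Cre replicate 2 or Il-17rc-Cre replicates 1 or 3 (edgeR adjusted p = 0.0543 to 0.0972). In Kcna1, the Il-17ra-Cre libraries with more oligodendrocyte transcripts (replicates 1 and 2) had the higher levels, and the part of those cells was not tested. Without Il-17ra-Cre replicate 3, 3 members rose and 12 fell, where 7.31% of all genes rose and 6.38% fell. Without Il-17rc-Cre replicate 2, 2 members fell (1.23% of all genes). With DESeq2, 3 rose and 8 fell (5.04% and 5.7% of all genes), and with limma voom 3 rose and 10 fell (13.4% and 9.18%). On the pan-neuronal scale 0 members passed in either direction with edgeR (22 had an unadjusted p under 0.05), where 0.00985% of all genes rose and 0.0591% fell. That count became 3 higher and 8 lower without Il-17ra-Cre replicate 3 (7.84% and 3.27% of all genes), and 1 higher and 3 lower without Il-17rc-Cre replicate 2 (0.508% and 1.2%).

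Genes whose proteins bind, cluster or modify these channels were counted from a list of 35, of which 34 were tested. Against Il-17ra-Cre 22 rose and 3 fell, where 16.4% of all genes rose and 24.4% fell. Against Il-17rc-Cre 23 rose and 2 fell, where 17.7% of all genes rose and 21.9% fell. Both Kcnd accessory genes rose. Dpp10 changed by 2.05 ± 0.26 against Il-17ra-Cre (edgeR adjusted p = 2.25e-04) and 1.78 ± 0.23 against Il-17rc-Cre (edgeR adjusted p = 2.46e-04). Dpp6 changed by 1.36 ± 0.24 (edgeR adjusted p = 0.00162) and 1.27 ± 0.22 (edgeR adjusted p = 0.00134). Lrrc55 and Lingo1, of BK channels, rose in both comparisons, and Lrrc26 and Lrrc38 of the same channels passed in neither. Of 7 genes of the GIRK and G-protein pathway, Kctd16, Gng2, Gnb5, Rgs4 and Rgs7 rose in both comparisons. The other two passed in neither, with Gnb1 at 0.03 and -0.22 (edgeR adjusted p = 0.924 and 0.38) and Kctd12 at -0.28 and -0.49 (edgeR adjusted p = 0.546 and 0.251). Kctd16, which tethers G proteins to the GABA-B receptor, changed by 1.72 ± 0.21 (edgeR adjusted p = 2.1e-04) and 1.59 ± 0.19 (edgeR adjusted p = 1.62e-04). The sulfonylurea receptors that complete ATP-sensitive channels moved apart. Abcc8, the partner of Kcnj11 in neurons, rose by 2.05 ± 0.35 (edgeR adjusted p = 0.00138) and 1.35 ± 0.32 (edgeR adjusted p = 0.00725). Abcc9, the vascular partner of Kcnj8, changed by -3.97 ± 0.84 (edgeR adjusted p = 0.00401) and -6.80 ± 0.91 (edgeR adjusted p = 2.97e-04), beside the mural sums given for Kcnmb1. Ank2, a membrane scaffold protein, fell in both comparisons. Cntn2, which holds Kcna channels at the juxtaparanode, fell by 2.33 against Il-17ra-Cre (SE 0.61, edgeR adjusted p = 0.0124) and was the 1 gene of the list that rose in Il-17ra-Cre against Il-17rc-Cre (3.09 ± 0.57, edgeR adjusted p = 0.0384).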

How the data were processed

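Ribosome-bound RNA of 10 libraries was measured by RNA sequencing. The deposited values are raw counts per gene, made by the authors from reads aligned with STAR 2.7.5c to GRCm38, per the submitters' processing notes. The sources used here do not give the counting tool, its strand setting or the annotation release, so reads of overlapping or antisense genes cannot be told apart. Libraries were made with SMART-Seq v4 by amplification, per the labels' protocols. Counts are reads, not molecules.

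All 55536 identifiers matched GENCODE M21 (GRCm38), which gave symbols, coordinates and exonic lengths for RPKM (from TMM-scaled CPM). Genes passing edgeR's filter by group (20301 of 55536) were fitted in 1 model of all 10 libraries with TMM scaling and tested with edgeR 4.0.16 (R 4.3.3) by the quasi-likelihood F test, called at a Benjamini-Hochberg adjusted p under 0.05. The fitted common dispersion of 0.239 corresponds to a biological coefficient of variation near 0.489. A log2 fold change is printed with its standard error. A second fit scaled libraries to the mean log2 count, with an offset of 0.5, of 12 pan-neuronal genes. The script was tested on simulated data.

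Members named with values were the 2 tested members of each subfamily with the highest mean CPM, up to 8 per direction and comparison with the largest log2 fold change among those whose groups did not overlap and whose mean log2 CPM reached 1, and every called member lower in Il-17rb-Cre. Some members that this rule names are not reported here. Kcnj5 and the members named on the pan-neuronal scale were added after their values were seen. The members, marker lists and partner list were chosen with earlier results of these data known. Alternatives were DESeq2 1.42.0, limma 3.58.1 voom with quality weights, other scaling factors and filters, 2 groups only, replicate blocks, another neuronal reference, and libraries left out.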

Additional observations from a re-analysis of the deposited data

Results flagged for a closer look

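In the group of 4 Il-17rc-Cre libraries, 4 of the 41 named members had a library standing apart by Dixon's criterion at the 95% level, which sets the gap to the nearest value against the range of the group. Chance flags about 1 in 20 groups. Kcna1 was at 44.4 CPM in replicate 2, with the others at 27.2 to 29.9. Kcnh3 was at 37.4 CPM in replicate 4 (others 68.4 to 73.4). Kcnv1 was at 31.9 CPM in replicate 3 (others 27.4 to 28.1). Kcnt1 was at 13.9 CPM in replicate 1 (others 20.4 to 21.4). Replicate 2, where Kcna1 was high, also had the highest sums of oligodendrocyte genes (3814 CPM) and microglial genes (125 CPM) of its group, and their part in the Kcna1 value was not tested. In all 4 members every Il-17rb-Cre library was above every Il-17rc-Cre library.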

How the results depend on the processing

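Of the named calls, 28 of 33 against Il-17ra-Cre and 26 of 32 against Il-17rc-Cre in Il-17rb-Cre held under all alternatives other than leaving out 2 libraries together, and 0 of 2 did for Il-17ra-Cre against Il-17rc-Cre. Leaving out each library in turn, the number of members higher in Il-17rb-Cre was 32 to 44 against Il-17ra-Cre and 28 to 38 against Il-17rc-Cre, and the number lower 7 to 8 and 6 to 8. In those fits 11.7 to 20.9% and 10.5 to 20.3% of all genes were higher, and 19 to 26.1% and 17.5 to 23.1% lower. The medians were 0.99 to 1.39 and 0.92 to 1.14. For Il-17ra-Cre against Il-17rc-Cre 0 to 3 members were higher and 0 to 12 lower (12 without Il-17ra-Cre replicate 3, where 6.38% of all genes were), with a median of -0.60 to -0.17. Relative to pan-neuronal genes, 8 to 16 were higher and 13 to 21 lower against Il-17ra-Cre, 1 to 7 higher and 18 to 27 lower against Il-17rc-Cre, and 0 to 3 higher and 0 to 8 lower between Il-17ra-Cre and Il-17rc-Cre, where 1.17 to 3.68% and 50.6 to 61%, 0.316 to 1.2% and 51 to 62.7%, and 0 to 7.84% and 0 to 3.27% of all genes were. Kcnip3 against Il-17rc-Cre, which was not called, ran from -0.03 to 0.25, below 0 without Il-17rb-Cre replicate 2 (-0.035) or Il-17rc-Cre replicate 2 (-0.029). The causes were not tested. Fewer members lower came from edgeR than from other tools: against Il-17rc-Cre 11 in Il-17rb-Cre with both DESeq2 and limma voom (7 with edgeR), and in Il-17ra-Cre 8 with DESeq2 and 10 with limma voom (0 with edgeR). The shares of all genes were 25% and 26.2% (21.9% with edgeR), and 5.7% and 9.18% (0.798% with edgeR). In a fit of only the 2 groups compared, 0 members were higher in Il-17ra-Cre against Il-17rc-Cre.

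Upper quartile scaling moved the median of all genes by 0.135 and 0.104 in the 2 Il-17rb-Cre comparisons. With 10 excitatory genes as the reference, 1 member was higher and 35 lower against Il-17ra-Cre (0.236% and 75.9% of all genes), and 0 higher and 41 lower against Il-17rc-Cre (0.123% and 74.9%). Without Il-17ra-Cre replicates 1 and 2 together, 19 members were higher and 4 lower against that group (6.4% and 11.9% of all genes), Kcna1 was at 0.56 in place of -0.20, and between Il-17ra-Cre and Il-17rc-Cre 0 were higher, with a median of 0.012. Without Il-17rc-Cre replicates 1 and 3 together, Kcnn2 against that group was at 0.21 in place of -0.54, and 0 members were higher in Il-17ra-Cre.

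No clear pairing of libraries by replicate number was seen. Correlations of deviations over the 9 same-numbered pairs ran from -0.151 to 0.247, 2 of them over 0.1, and over the other 24 from -0.267 to 0.139. A library correlated best with its own number in 5 of 18 cases. With 3 or 4 libraries per group, these values cannot exclude a shared batch. Replicate 3 of Il-17ra-Cre and of Il-17rb-Cre has the library number 4, so the 2 numberings differ. With the replicate block, 45 members were higher and 7 lower against Il-17ra-Cre (15.6% and 22% of all genes), 30 and 9 against Il-17rc-Cre (13.1% and 18.3%), 0 higher between Il-17ra-Cre and Il-17rc-Cre, and 2 higher against Il-17rc-Cre relative to pan-neuronal genes (0.365% of all genes). Kcnb2 then passed against Il-17ra-Cre (1.37, edgeR adjusted p = 0.0152). With the replicate block by library number, 38 were higher and 7 lower against Il-17ra-Cre (14.2% and 21.3% of all genes), 30 and 5 against Il-17rc-Cre (12.8% and 18.2%, members' median 1.18), and 0 higher in Il-17ra-Cre. Kcng4 against Il-17rc-Cre then missed the threshold (-1.58, edgeR adjusted p = 0.0628). Members with few counts, such as Kcnk5 and Kcnmb1, are measured with the least precision.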
